A study of Mus musculus with 21 samples.

Results

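Purinergic signalling was followed through 7 genes in sorted brain myeloid cells: the ADP receptor genes P2ry12 and P2ry13, the UDP receptor gene P2ry6, the ATP-gated channel genes P2rx4 and P2rx7, the ectonucleotidase gene Entpd1 and the adenosine receptor gene Adora3. They were chosen by symbol, as 7 of the 45706 gene identifiers in the count table, and all 7 passed the filter of at least 5 counts over all libraries. In microglia from WT mice at 1 d after injury, P2ry12, P2ry13, P2rx7 and Entpd1 fell by 1.23 to 3.34 on the log2 scale relative to sham controls, and at 7 d P2ry12, P2rx7 and Entpd1 were higher than at 1 d. P2rx4 went the other way and was higher than in sham controls at 7 d (log2 fold change 1.11, SE 0.21, n = 3 libraries per group). In infiltrating myeloid cells P2ry12, P2ry13, P2rx7 and Adora3 were lower than in microglia of the same genotype and time. No member passed the test between Fgg γ390–396A and WT mice.

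The libraries are bulk RNA-seq of cells sorted from a brain block around the lesion of adult male C57BL/6 mice, aged 17 to 24 weeks, after controlled cortical impact (CCI), a mechanical model of traumatic brain injury, or after sham surgery without impact. There are 21 libraries in 7 groups of 3, each library made from 2 pooled brains: CD45low CD11b+ microglia of WT sham controls and of either genotype, WT or Fgg γ390–396A, at 1 d and at 7 d post-CCI, and CD45high CD11b+ infiltrating myeloid cells of either genotype at 1 d post-CCI. Fgg γ390–396A mice carry alanine substitutions in the fibrinogen γ chain that remove its binding site for the leukocyte integrin CD11b/CD18, and no sham library was made from them, so each comparison of a Fgg γ390–396A group with sham controls also differs in genotype. Total counts per library ranged from 18896963 to 51875790, ribosomal RNA took 43.0% to 58.6% of them, and levels below are CPM, counts scaled to a common library size with TMM factors, in which 3 counts correspond to 0.0448 to 0.158 CPM. Transcript length had been divided out within each library, so levels can be compared between genes. Fgg itself was listed at 0 in every WT and sham library and reached at most 0.502 CPM in Fgg γ390–396A libraries, and because the mutation substitutes residues, its level is no check of genotype. The summed level of 10 microglial markers was 8860 to 10854 CPM in sham controls, 3611 to 8812 CPM in microglia after injury and 534 to 1336 CPM in infiltrating cells, and that of 10 monocyte markers was 8.99 to 53.8, 33.9 to 201 and 2781 to 4236 CPM. Infiltrating-cell libraries also held 2797 to 13267 CPM of 10 neutrophil markers, against 106 to 871 CPM in microglia. They held 1348 to 2218 CPM of 7 border macrophage markers, against 4.91 to 252 CPM in microglia. That sort thus held markers of monocytes, neutrophils and border macrophages.

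Extracellular nucleotides act as danger signals in the injured brain. ATP leaking from damaged cells opens P2X channels, is cut to ADP and AMP by ectonucleotidases, and is finally converted to adenosine, so that receptors for each breakdown product read a different stage of the same signal. In microglia P2Y12 is the Gi-coupled ADP receptor that steers process extension towards an injury and is used as a marker of the resting state, P2Y13 is a closely related ADP receptor, and P2Y6 senses UDP and drives phagocytosis. P2X4 and P2X7 are ATP-gated cation channels, the latter opened by high ATP and known as a trigger of inflammasome assembly and release of interleukin-1β. CD39, the product of Entpd1, hydrolyses ATP and ADP to AMP, and the A3 receptor, encoded by Adora3, is a Gi-coupled adenosine receptor.

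In sham microglia P2ry12 stood far above the other members. Its levels were 4021, 3954 and 4021 CPM in the 3 sham libraries, which was 73.6% to 77.4% of the summed level of the 7 genes. P2ry13 followed at 666, 760 and 734 CPM. The remaining members were lower still. Entpd1 had 184, 210 and 318 CPM, and P2ry6 had 142, 138 and 166 CPM. Among the channels P2rx7 had 105, 99.2 and 121 CPM, P2rx4 33.5, 30.0 and 60.7 CPM, and Adora3 45.2, 32.4 and 44.6 CPM. Entpd1, P2rx4, P2ry6 and P2rx7 were highest in the third sham library. It also had the most neutrophil (816 CPM against 160 and 249), monocyte (53.8 against 8.99 and 10.1), border macrophage (249 against 4.91 and 118) and microglial markers (10854 against 8860 and 9057). In infiltrating cells P2rx7 (13.5 to 34.4 CPM) and Entpd1 (36.6 to 90.8 CPM) were below every sham library. P2rx4 (80.2 to 106 CPM) was above each, and P2ry6 (101 to 218 CPM) overlapped. The part of other cells in the 4 values was not tested.

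**Figure D1:**
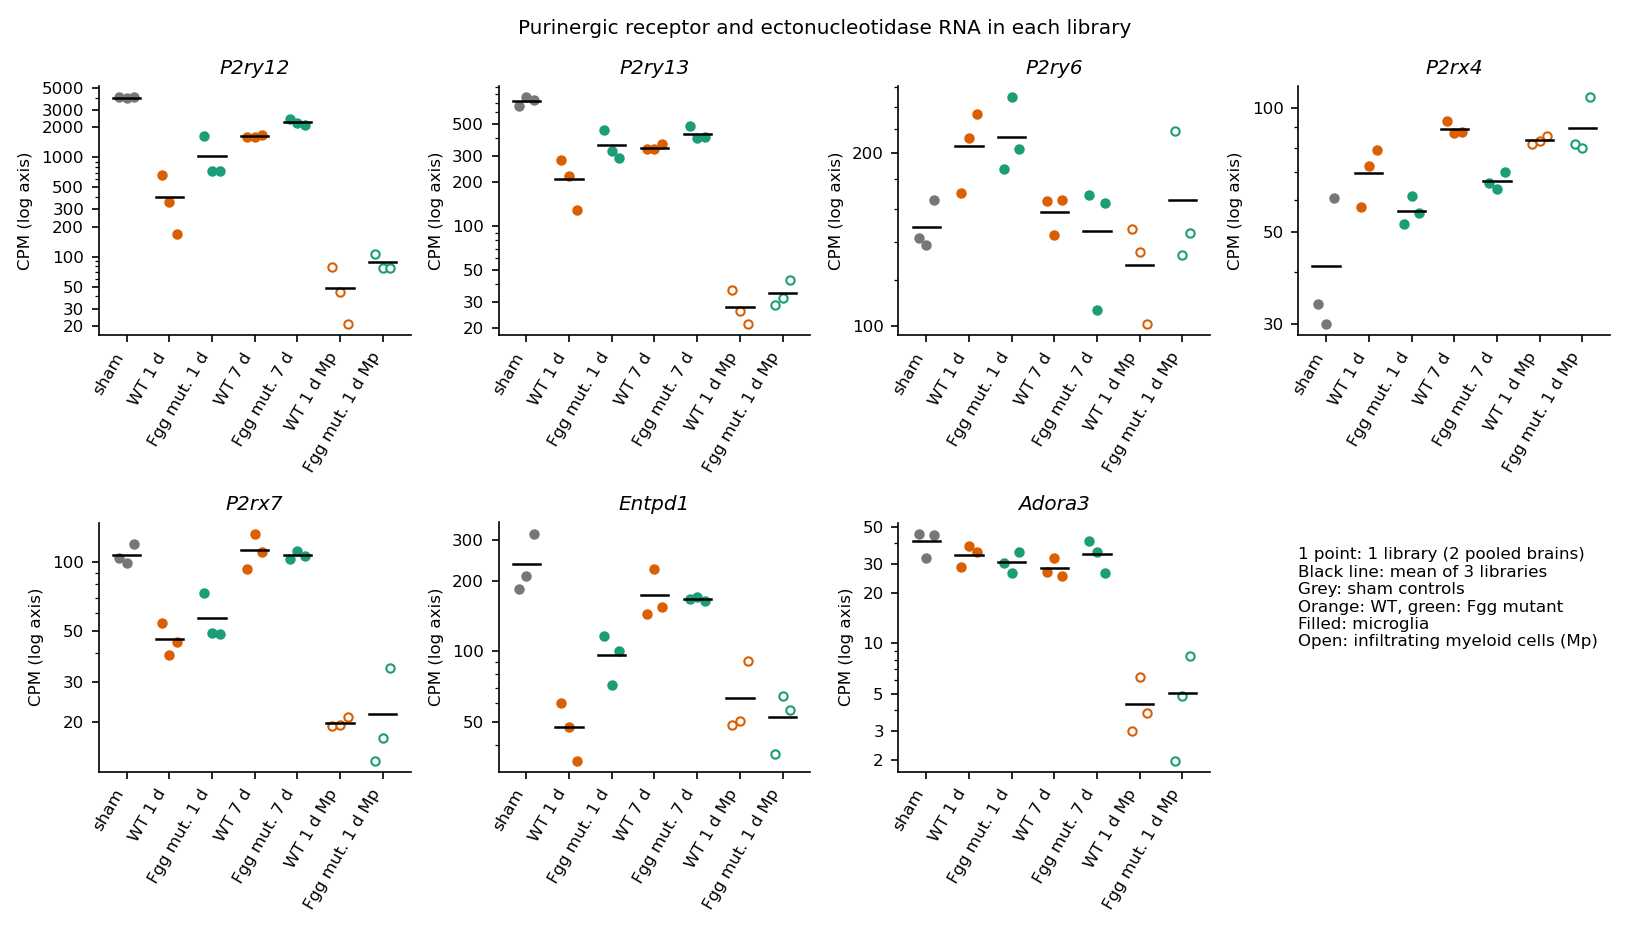
Level of each member in every library, in CPM on a log axis, with 1 panel per gene. Points are libraries (grey sham controls, orange WT, green Fgg γ390–396A, filled microglia, open infiltrating myeloid cells, marked Mp) and black lines are means of 3 libraries. P2ry12 drops from between 3954 and 4021 CPM in sham controls to between 169 and 659 CPM in WT microglia at 1 d, while P2rx4 sits higher after injury than in 2 of the 3 sham libraries.

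Some members are neighbours in the genome (build GRCm38, GENCODE M21). P2ry13 (ENSMUSG00000036362, chromosome 3, 59207892 to 59210882, minus strand) lies 5389 bases from P2ry12 (ENSMUSG00000036353, chromosome 3, 59216272 to 59262871, minus strand), and both lie within the span of Med12l on the opposite strand, which shares 9 exonic bases with P2ry12 and none with P2ry13 and reached at most 12.6 CPM. P2rx7 (ENSMUSG00000029468, chromosome 5, 122643911 to 122691432, plus strand) is 16111 bases from P2rx4 (ENSMUSG00000029470, chromosome 5, 122707544 to 122729738, plus strand). P2ry6 (ENSMUSG00000048779) is on chromosome 7 (100937630 to 100974649), Entpd1 (ENSMUSG00000048120) on chromosome 19 (40612366 to 40741602) and Adora3 (ENSMUSG00000000562) on chromosome 3 (105870858 to 105908926). Adora3 shares 779 of its 3729 exonic bases (20.9%) with Tmigd3, which was listed at no more than 6.07 CPM, so the division of reads between them is uncertain. P2ry12, P2ry13 and Adora3 are 23.7, 23.8 and 22.9 Mb from Fgg on the same chromosome.

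The promoters of both neighbouring pairs are shown because P2ry12 and P2ry13 fell together after injury, while P2rx7 fell and P2rx4 did not. Each is the 250 bases before the RefSeq start site (GRCm38.p6), printed 5′ to 3′ on the gene's strand: chr3:59262986-59263235 (minus strand) for P2ry12, chr3:59210883-59211132 (minus strand) for P2ry13, chr5:122643677-122643926 (plus strand) for the first of 2 P2rx7 entries and chr5:122707294-122707543 (plus strand) for P2rx4. Capitals mark matches, on either strand, to 4 motifs searched: GAGGAA (PU.1 type), the PU.1 and IRF composite, TGANTCA (AP-1) and TGTGGT (RUNX).
P2ry12: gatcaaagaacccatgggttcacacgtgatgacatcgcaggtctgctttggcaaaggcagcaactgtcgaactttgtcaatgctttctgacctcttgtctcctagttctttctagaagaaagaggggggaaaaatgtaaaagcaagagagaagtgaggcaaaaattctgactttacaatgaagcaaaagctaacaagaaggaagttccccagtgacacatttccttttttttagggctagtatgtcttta
P2ry13: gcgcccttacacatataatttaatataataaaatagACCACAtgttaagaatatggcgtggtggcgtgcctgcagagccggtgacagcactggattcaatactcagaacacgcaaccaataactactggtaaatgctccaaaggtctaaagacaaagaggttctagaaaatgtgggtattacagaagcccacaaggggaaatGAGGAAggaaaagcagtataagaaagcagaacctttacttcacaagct
P2rx7: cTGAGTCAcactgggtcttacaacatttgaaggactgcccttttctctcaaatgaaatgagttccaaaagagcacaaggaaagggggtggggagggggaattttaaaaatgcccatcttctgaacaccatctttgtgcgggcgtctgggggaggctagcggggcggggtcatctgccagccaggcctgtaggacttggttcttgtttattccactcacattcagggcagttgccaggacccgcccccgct
P2rx4: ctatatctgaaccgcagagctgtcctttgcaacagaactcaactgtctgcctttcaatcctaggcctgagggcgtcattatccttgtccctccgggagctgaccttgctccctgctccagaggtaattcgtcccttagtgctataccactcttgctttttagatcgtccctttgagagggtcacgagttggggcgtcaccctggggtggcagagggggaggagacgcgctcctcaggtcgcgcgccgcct

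P2ry13 held 1 RUNX match, read on the opposite strand, and 1 PU.1-type match, and the P2rx7 window held 1 AP-1 match at its far end. No searched motif was in the windows of P2ry12 or P2rx4. Of 32851 promoter windows of the same length, 23.3% held GAGGAA, 2.3% the PU.1 and IRF composite, 6.75% TGANTCA and 14.05% TGTGGT, and a match describes the sequence only. Of the windows not printed, that of Adora3 held 1 AP-1 and 1 PU.1-type match and the second of 2 Entpd1 windows held 2 PU.1-type matches. The first Entpd1 window and the second P2rx7 window held none. P2ry6 is named only.

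The first question was how these genes differed between WT microglia after injury and sham controls. No day after surgery is given for the sham libraries, which serve for both 1 d and 7 d. At 1 d post-CCI, 4 of 7 members were called, all lower, beside 12.3% of all 23815 genes tested in either direction and 4.21% lower. To be called, a gene had to move by more than 1 on the log2 scale in either direction and to have an adjusted p below 0.05 (edgeR, quasi-likelihood, Benjamini-Hochberg over all genes tested). P2ry12 had 659, 357 and 169 CPM against 4021, 3954 and 4021 CPM in the sham libraries, which is -3.34 as a log2 fold change (SE 0.46, adjusted p = 3.3e-05 by edgeR). Every injured library lay well below every sham library, and the injured libraries differed among themselves more than the sham libraries did. Its neighbour P2ry13 fell less, to 281, 218 and 128 CPM, a log2 fold change of -1.78 (SE 0.25, adjusted p = 4.9e-05 by edgeR). Entpd1 fell to 60.3, 47.6 and 34.2 CPM, a log2 fold change of -2.33 (SE 0.30, adjusted p = 1.8e-05 by edgeR). P2rx7 fell to 54.3, 39.2 and 44.7 CPM, a log2 fold change of -1.23 (SE 0.26, adjusted p = 0.0020 by edgeR). For each of these genes the highest injured library was below the lowest sham library.

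The other 3 members did not pass. P2ry6, the UDP receptor, had 170, 212 and 234 CPM, each above every sham library, but its log2 fold change of 0.47 (SE 0.21) had an adjusted p of 0.16 by edgeR. P2rx4 had 57.7, 72.6 and 79.2 CPM, which overlapped the sham range through the third sham library, and its log2 fold change of 0.75 (SE 0.21, adjusted p = 0.014 by edgeR) was under the bar on size. Without that sham library it was 1.14 (adjusted p = 1.4e-04 by edgeR). Adora3 had 28.5, 38.3 and 35.0 CPM, overlapping the sham values (log2 fold change -0.27, SE 0.34, adjusted p = 0.67 by edgeR). The groups did not overlap for 5 of 7 members, beside 33.8% of all genes.

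The summed microglial markers were also lower at 1 d, at 3611 to 5099 CPM in WT mice against 8860 to 10854 CPM in sham controls, and monocyte markers were higher, at 143 to 201 against 8.99 to 53.8 CPM. Their part in the members' values was not tested. In bulk samples fewer microglia and less RNA per cell cannot be told apart. Per 100 CPM of summed microglial markers, P2ry12 was 4.67 to 12.9 in WT mice against 37.0 to 45.4 in sham controls, P2ry13 3.55 to 5.52 against 6.76 to 8.39, and Entpd1 0.947 to 1.18 against 2.08 to 2.93. These 3 genes were thus lower also relative to other microglial genes, with no overlap. P2rx7 overlapped on this scale, with 0.781 to 1.24 against 1.10 to 1.18. P2ry6 (3.33 to 6.47 against 1.53 to 1.60) and P2rx4 (1.13 to 2.19 against 0.331 to 0.559) were higher with no overlap, as was Adora3 (0.558 to 0.969 against 0.358 to 0.510). The ratios are descriptions and were given no test.

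In Fgg γ390–396A microglia at 1 d, compared with the same sham libraries, 3 of 7 members were called, all lower, beside 6.64% of all genes in either direction and 1.15% lower. P2ry12 had 1632, 724 and 728 CPM, a log2 fold change of -1.96 (SE 0.44, adjusted p = 0.0051 by edgeR). Entpd1 had 116, 71.9 and 101 CPM, a log2 fold change of -1.30 (SE 0.29, adjusted p = 0.0054 by edgeR). P2ry13 had 455, 328 and 291 CPM, a log2 fold change of -1.01 (SE 0.25, adjusted p = 0.011 by edgeR), just past the bar on size. Its call was lost when sham replicate 2 (-0.97) or 3 (-0.99) or Fgg γ390–396A replicate 2 (-0.95) or 3 (-0.88) was left out, and it fell just short of the bar on size (-0.9995) with the microglia libraries alone. P2rx7, at 73.4, 48.9 and 48.5 CPM, also lay below every sham library, with a log2 fold change of -0.93 (SE 0.26, adjusted p = 0.025 by edgeR), under the bar. It was called with DESeq2's size factors in edgeR (-1.05, adjusted p = 0.012) and by DESeq2's Wald test (-1.05, adjusted p = 0.0010). It was -1.15 (adjusted p = 0.011 by edgeR) without Fgg γ390–396A replicate 1, the library with the highest P2ry12, P2ry13, P2rx7 and Entpd1 of its group.

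P2ry6 had 187, 250 and 203 CPM in these mice (log2 fold change 0.52, SE 0.21, adjusted p = 0.16 by edgeR), again above every sham library. P2rx4 had 52.5, 61.2 and 55.6 CPM (0.45, SE 0.21, adjusted p = 0.22 by edgeR) and Adora3 30.4, 26.4 and 35.2 CPM (-0.41, SE 0.34, adjusted p = 0.53 by edgeR), both overlapping the sham range. Summed microglial markers were 5988 to 6668 CPM here against 8860 to 10854 CPM in sham controls, and their part in the members' values was not tested. Per 100 CPM of these markers, P2ry12 (11.7 to 24.5 against 37.0 to 45.4) and Entpd1 (1.16 to 1.74 against 2.08 to 2.93) were lower with no overlap, while P2ry13 (4.86 to 6.83 against 6.76 to 8.39), P2rx7 (0.787 to 1.10 against 1.10 to 1.18) and Adora3 (0.425 to 0.588 against 0.358 to 0.510) overlapped. P2ry6 (2.81 to 4.02) and P2rx4 (0.788 to 0.985) were above their sham ranges. The comparisons of the 2 genotypes share the sham libraries, so likeness between them is not independent. Groups were apart for 5 of 7 members, beside 29.0% of all genes.

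**Figure D2:**
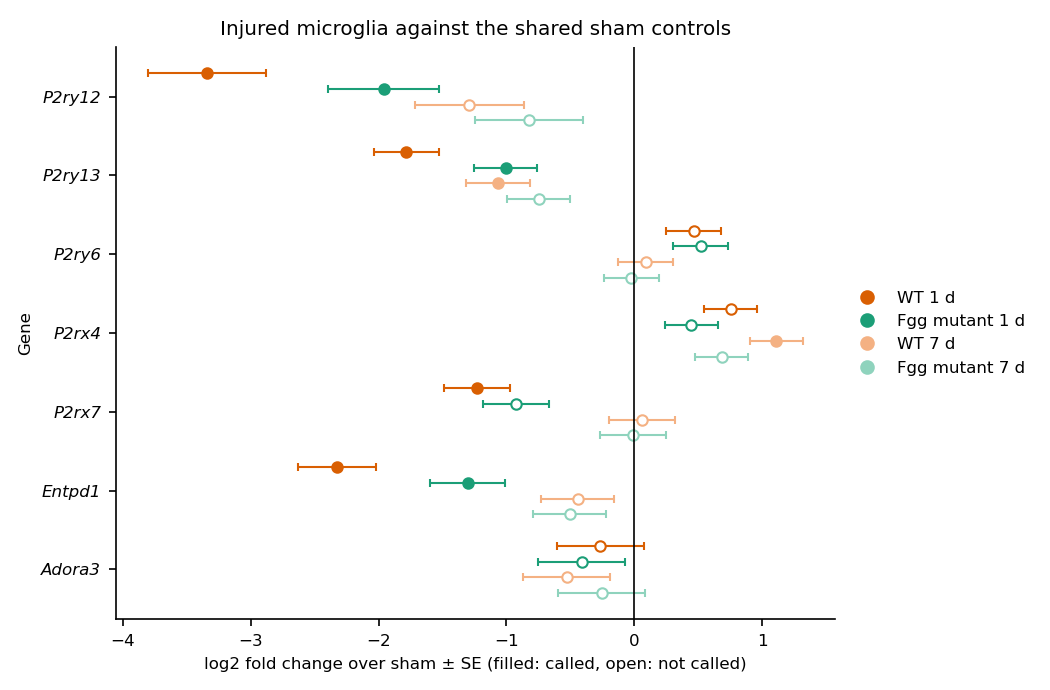
Log2 fold change over the shared sham controls (horizontal axis, points with bars of 1 SE, n = 3 libraries per group) for each gene (vertical axis) in WT and Fgg γ390–396A microglia at 1 d and 7 d. Filled points were called and open points were not. The 1 d values of P2ry12, P2ry13, P2rx7 and Entpd1 lie left of 0, from -0.93 to -3.34, and those of P2rx4 and P2ry6 lie right of it.

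By 7 d the pattern in WT microglia had changed gene by gene. Of 7 members 2 were called against sham controls, P2ry13 lower and P2rx4 higher, beside 2.02% of all genes in either direction, 0.0924% lower and 1.93% higher. P2ry13 had 334, 336 and 362 CPM, a log2 fold change of -1.06 (SE 0.25, adjusted p = 0.022 by edgeR). P2rx4 had 93.1, 87.1 and 87.8 CPM against 33.5, 30.0 and 60.7 CPM, a log2 fold change of 1.11 (SE 0.21, adjusted p = 0.0042 by edgeR). All 3 injured libraries were above every sham library. Both calls were near the bars: P2rx4 fell under the bar on size without sham replicate 1 (0.98) or 2 (0.92) and had an adjusted p of 0.062 by edgeR with the compared groups alone, and P2ry13 had an adjusted p of 0.053 to 0.092 by edgeR without sham replicate 2 or 3 or any 1 of the WT libraries at 7 d.

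P2ry12 at 7 d had 1612, 1595 and 1695 CPM, less than the lowest sham library in each case. The log2 fold change was -1.29 (SE 0.43), with an adjusted p of 0.15 by edgeR, so it was not called. The call depended on the fit: adjusted p was 0.046 with the replicate number as a block, 0.0020 with the compared groups alone, both by edgeR, and 0.028 by DESeq2's Wald test. P2rx7 overlapped the sham range again, at 93.9, 133 and 111 CPM (log2 fold change 0.06, SE 0.26, adjusted p = 1 by edgeR). Entpd1 had 144, 225 and 155 CPM (-0.44, SE 0.29, adjusted p = 0.57 by edgeR), P2ry6 165, 144 and 165 CPM (0.09, SE 0.21, adjusted p = 0.99 by edgeR) and Adora3 26.8, 32.6 and 25.3 CPM (-0.53, SE 0.34, adjusted p = 0.57 by edgeR). The sham and injured ranges of these 4 genes overlapped. Ranges were apart for 3 of 7 members, beside 20.1% of all genes.

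In Fgg γ390–396A microglia at 7 d no member was called against sham controls by edgeR or by DESeq2, and 2 had an unadjusted p under 0.05 in edgeR, beside 0.663% of all genes called. P2ry12 had 2433, 2227 and 2115 CPM (log2 fold change -0.82, SE 0.42, adjusted p = 0.67 by edgeR) and P2ry13 484, 399 and 403 CPM (-0.75, SE 0.25, adjusted p = 0.28 by edgeR). Both stayed below every sham library. P2rx4 had 65.8, 63.6 and 70.1 CPM, each above every sham library (0.68, SE 0.21, adjusted p = 0.19 by edgeR), and would have been called without sham replicate 3 (1.07, adjusted p = 0.0035 by edgeR). Entpd1, at 167, 170 and 164 CPM, was below the lowest sham library in all 3 (-0.51, SE 0.29, adjusted p = 0.70 by edgeR). P2rx7 (103, 113 and 107 CPM), P2ry6 (169, 107 and 163 CPM) and Adora3 (40.9, 35.3 and 26.2 CPM) had log2 fold changes of -0.01, -0.02 and -0.26. Their ranges overlapped those of sham controls. The ranges were apart for 4 of 7 members, beside 15.6% of all genes.

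The change from 1 d to 7 d was tested directly within each genotype. In WT mice 3 of 7 members were called, all higher at 7 d, beside 7.06% of all genes in either direction and 2.67% higher. P2ry12 was higher by 2.05 on the log2 scale (SE 0.44, adjusted p = 0.0038 by edgeR), Entpd1 by 1.88 (SE 0.30, adjusted p = 3.0e-04 by edgeR) and P2rx7 by 1.29 (SE 0.26, adjusted p = 0.0024 by edgeR). For each of them all 7 d libraries were above all 1 d libraries. P2ry13 had a log2 fold change of 0.72 (SE 0.25, adjusted p = 0.076 by edgeR), P2rx4 0.36 (SE 0.20), P2ry6 -0.38 (SE 0.21) and Adora3 -0.26 (SE 0.34). The ranges were apart for 6 members, all but Adora3, beside 29.4% of all genes.

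In Fgg γ390–396A mice 0 of 7 members were called between 7 d and 1 d by edgeR, beside 3.54% of all genes, and 4 had an unadjusted p under 0.05. DESeq2 called 2 members, beside 1209 of all 23815 genes. P2ry12 had a log2 fold change of 1.14 (SE 0.43, adjusted p = 0.16 by edgeR), P2rx7 0.92 (SE 0.26, adjusted p = 0.041 by edgeR) and Entpd1 0.80 (SE 0.29, adjusted p = 0.14 by edgeR). Their 7 d libraries were all above their 1 d libraries. Leaving out Fgg γ390–396A replicate 1 at 1 d, the library with the highest 1 d level of these 3 genes, gave calls for P2ry12 (1.64, adjusted p = 0.035 by edgeR) and P2rx7 (1.14, adjusted p = 0.018 by edgeR). The remaining values were 0.26 for P2ry13, 0.24 for P2rx4, -0.54 for P2ry6 and 0.16 for Adora3. The ranges were apart for 5 of 7 members, beside 27.3% of all genes. Whether the time course differed by genotype was tested as the difference of the genotype effects at 7 d and 1 d. No member was called (adjusted p = 1 by edgeR for each, 0 by DESeq2, 1 member at an unadjusted p under 0.05), beside 0.0% of all 23815 genes by edgeR and 33 genes by DESeq2. Entpd1 had the largest difference among the members, -1.08 (SE 0.41).

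The study also asked what loss of fibrin binding to CD11b did to these cells, which is read here as Fgg γ390–396A against WT, with a bar of 0.1 on the adjusted p. In microglia at 1 d 0 of 7 members were called by edgeR or DESeq2, with 3 at an unadjusted p under 0.05, and 0.0546% of all genes were called. The libraries given above for P2ry12, P2ry13 and Entpd1 did not overlap between genotypes, each Fgg γ390–396A library being the higher, beside 8.72% of all genes apart in either direction and 5.73% higher. P2ry12 and P2ry13 lie on the chromosome of Fgg, and the part of sequence linked to the mutation was not tested at either time. Entpd1 had 116, 71.9 and 101 CPM against 60.3, 47.6 and 34.2 CPM, a log2 fold change of 1.02 (SE 0.29, adjusted p = 0.73 by edgeR). P2ry13 had a log2 fold change of 0.78 (SE 0.25, adjusted p = 0.84 by edgeR). For P2ry12, 1.38 (SE 0.43) became 1.97 with an adjusted p of 0.093 by edgeR when WT replicate 1, the WT library with the highest level, was left out. This was the only setting tried in which a member was called between genotypes. Over the settings tried its adjusted p ranged from 0.093 to 1. DESeq2's Wald test gave P2ry12 a log2 fold change of 1.36 with an adjusted p of 0.14. The paper, which also used DESeq2, instead lists P2ry12 among homeostatic genes that were increased in Fgg γ390–396A microglia at 1 d. The source of that difference was not tested.

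P2rx7 (0.31, SE 0.26), P2ry6 (0.06, SE 0.21), Adora3 (-0.15, SE 0.34) and P2rx4 (-0.31, SE 0.20) had overlapping ranges between genotypes at 1 d. Summed microglial markers were 5988 to 6668 CPM in Fgg γ390–396A and 3611 to 5099 CPM in WT libraries, and monocyte markers 47.2 to 115 against 143 to 201 CPM. Those sums moved with the same contrast, and their part in the result was not tested. Per 100 CPM of microglial markers, P2ry12 was 11.7 to 24.5 against 4.67 to 12.9, P2ry13 4.86 to 6.83 against 3.55 to 5.52 and Entpd1 1.16 to 1.74 against 0.947 to 1.18. On that scale all 3 genes overlapped between genotypes, whereas P2rx4 was lower with no overlap (0.788 to 0.985 against 1.13 to 2.19). P2ry6, P2rx7 and Adora3 overlapped.

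At 7 d 0 of 7 members were called between genotypes by edgeR or DESeq2, none had an unadjusted p under 0.05, and 0.0378% of all genes were called. The libraries were apart for 3 members, beside 11.1% of all genes. P2ry12 (log2 fold change 0.47, SE 0.42) and P2ry13 (0.32, SE 0.25) were higher in each Fgg γ390–396A library than in any WT library. P2rx4, at 65.8, 63.6 and 70.1 CPM against 93.1, 87.1 and 87.8 CPM, was lower in each (-0.43, SE 0.21, adjusted p = 1 by edgeR). Entpd1 (-0.06, SE 0.29), P2rx7 (-0.07, SE 0.26), P2ry6 (-0.11, SE 0.21) and Adora3 (0.27, SE 0.34) overlapped. Microglial markers summed to 7700 to 8812 CPM against 7277 to 8033 CPM. Per 100 CPM of them the same 3 members were apart, with P2ry12 (27.5 to 28.1 against 20.1 to 22.3) and P2ry13 (5.03 to 5.49 against 4.16 to 4.78) higher and P2rx4 lower (0.746 to 0.911 against 1.157 to 1.197).

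**Figure D3:**
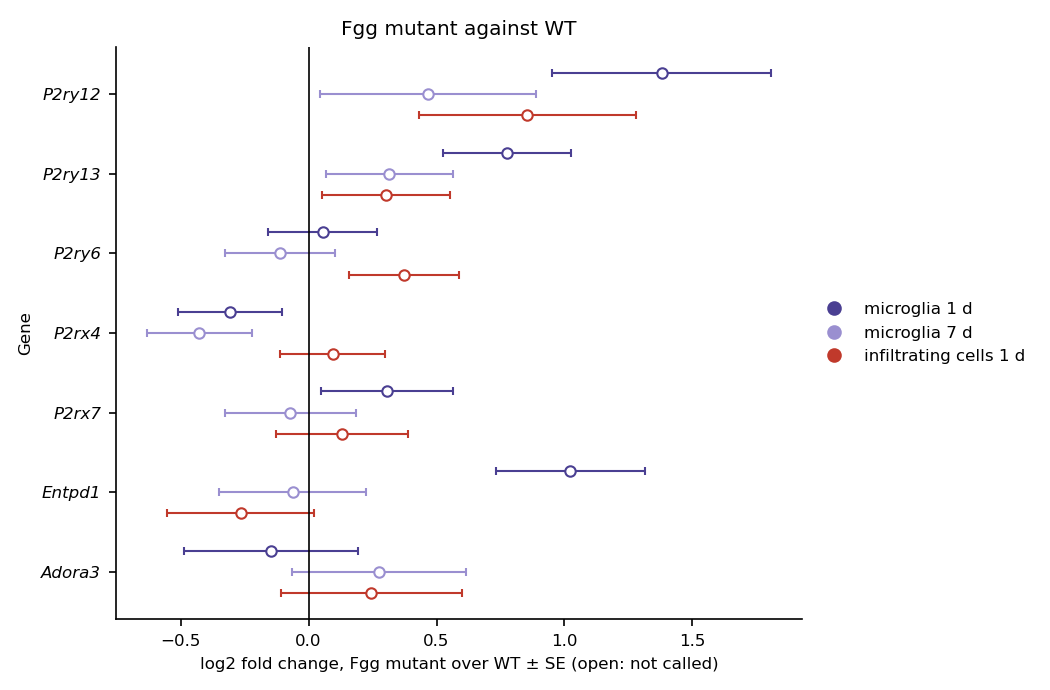
Log2 fold change of Fgg γ390–396A over WT (horizontal axis, points with bars of 1 SE, n = 3 libraries per group) for each gene (vertical axis), in microglia at 1 d and 7 d and in infiltrating myeloid cells at 1 d. All points are open because none was called. P2ry12 at 1 d, at 1.38, is the farthest from 0.

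Infiltrating myeloid cells at 1 d gave a different set of levels. P2ry6 and then P2rx4 had the highest mean levels there in both genotypes, and P2ry12 took 6.11% to 22.1% of the summed level of the 7 genes. Against WT microglia at 1 d, 4 of 7 members were called in WT infiltrating cells, all lower, beside 11.9% of all genes in either direction and 6.31% lower. P2ry12 had 79.6, 44.7 and 21.1 CPM (log2 fold change -3.03, SE 0.45, adjusted p = 9.5e-05 by edgeR). P2ry13 had 36.4, 26.2 and 21.3 CPM (-2.90, SE 0.27, adjusted p = 5.5e-07 by edgeR). Adora3, whose level had not passed any test in microglia, had 2.98, 6.26 and 3.83 CPM (-2.97, SE 0.37, adjusted p = 1.3e-05 by edgeR). P2rx7 had 19.1, 19.3 and 20.9 CPM (-1.22, SE 0.26, adjusted p = 0.0026 by edgeR). All infiltrating-cell libraries of these 4 genes lay below all microglia libraries.

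P2ry6, at 147, 135 and 101 CPM, was also below each microglia library (-0.69, SE 0.21, adjusted p = 0.034 by edgeR) but under the bar on size. P2rx4, at 82.1, 83.4 and 85.8 CPM, was above each of them (0.26, SE 0.20, adjusted p = 0.43 by edgeR). Entpd1 had 48.5, 50.2 and 90.8 CPM and overlapped with WT microglia at 1 d (0.42, SE 0.29, adjusted p = 0.36 by edgeR). The ranges were apart for 6 of 7 members, beside 29.2% of all genes. Microglial markers in these libraries, at 534 to 915 CPM, were present though low, and their part in the members' levels was not tested. P2ry12 per 100 CPM of microglial markers was 3.94 to 9.32 in WT infiltrating cells and 4.67 to 12.9 in WT microglia, so on that scale the ranges overlapped. P2ry13 and Adora3 overlapped too. The marker sum was 534 to 915 CPM here against 3611 to 5099 CPM in WT microglia. A gene that infiltrating cells express themselves therefore rises on this scale, so a higher value does not describe its level in them. With that limit, P2rx7, lower in CPM, was higher with no overlap (2.11 to 3.92 against 0.781 to 1.24), as were P2rx4 (9.12 to 16.1 against 1.13 to 2.19), P2ry6 (14.7 to 18.9 against 3.33 to 6.47) and Entpd1 (5.49 to 17.01 against 0.947 to 1.18).

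In Fgg γ390–396A mice the same 4 members were called lower in infiltrating cells, beside 16.7% of all genes in either direction and 9.7% lower. The median log2 fold change of all genes was -0.13 in this comparison. P2ry12 had 108, 77.9 and 77.6 CPM (-3.55, SE 0.47, adjusted p = 1.8e-05 by edgeR) and P2ry13 28.6, 32.2 and 42.7 CPM (-3.38, SE 0.27, adjusted p = 1.0e-07 by edgeR). Adora3 had 1.99, 4.86 and 8.37 CPM (-2.58, SE 0.36, adjusted p = 3.7e-05 by edgeR), and P2rx7 13.5, 16.9 and 34.4 CPM (-1.40, SE 0.26, adjusted p = 6.7e-04 by edgeR). The libraries of these genes were again below all microglia libraries of the genotype. P2rx7 lost its call in a fit of the compared groups alone (-1.27, adjusted p = 0.060 by edgeR). Entpd1 had 36.6, 64.6 and 56.3 CPM (-0.87, SE 0.29, adjusted p = 0.036 by edgeR), under the bar on size, and passed it without microglia replicate 2 (-1.04) or infiltrating-cell replicate 2 (-1.05).

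P2rx4, at 81.8, 80.2 and 106 CPM, was above each Fgg γ390–396A microglia library at 1 d (0.66, SE 0.21, adjusted p = 0.025 by edgeR), under the bar on size. P2ry6, at 218, 133 and 145 CPM, overlapped (-0.37, SE 0.21, adjusted p = 0.24 by edgeR). Per 100 CPM of microglial markers, P2ry13 was lower than in microglia with no overlap (2.41 to 4.14 against 4.86 to 6.83), P2ry12 (5.83 to 13.6 against 11.7 to 24.5) and Adora3 (0.251 to 0.812 against 0.425 to 0.588) overlapped, and P2rx7 was higher with no overlap (1.27 to 3.34 against 0.787 to 1.10). The limit given above for this scale holds here too, with marker sums of 791 to 1336 against 5988 to 6668 CPM. The ranges were apart for 6 of 7 members, beside 32.1% of all genes. Between genotypes, infiltrating cells had 0 of 7 members called by edgeR or DESeq2, none at an unadjusted p under 0.05 and none with ranges apart, beside 0.453% of all genes called and 8.02% apart. The log2 fold changes there ran from -0.27 for Entpd1 to 0.86 for P2ry12. The difference of the genotype effects between the 2 cell populations had 0 members called by edgeR or DESeq2 and 1, Entpd1, at an unadjusted p under 0.05 (-1.29, SE 0.41, adjusted p = 0.49 by edgeR), beside 0.0462% of all genes called.

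Ordered by mean level over the 7 groups, the members ran in different orders. P2ry12 went from sham controls (3999 ± 39.0 CPM, SD, n = 3) through Fgg γ390–396A at 7 d (2258 ± 161), WT at 7 d (1634 ± 53.5), Fgg γ390–396A at 1 d (1028 ± 523) and WT at 1 d (395 ± 247) to the infiltrating cells of Fgg γ390–396A (87.8 ± 17.3) and WT mice (48.4 ± 29.4). Neighbours in that order did not overlap except WT at 7 d with Fgg γ390–396A at 1 d and the 2 infiltrating groups. P2rx7 was highest in WT microglia at 7 d (113 ± 19.8 CPM), followed by sham controls (108 ± 11.1) and Fgg γ390–396A at 7 d (107 ± 4.86). Those 3 groups overlapped, and a step down followed to 1 d microglia of Fgg γ390–396A (56.9 ± 14.3) and WT mice (46.1 ± 7.67). P2rx4 was lowest in sham controls (41.4 ± 16.8 CPM) and highest in infiltrating cells of Fgg γ390–396A mice (89.5 ± 14.7) and WT microglia at 7 d (89.4 ± 3.29), which overlapped. P2ry6 ranged from 128 ± 24.0 CPM in WT infiltrating cells to 213 ± 32.4 CPM in Fgg γ390–396A microglia at 1 d, and each pair of neighbours in its order overlapped.

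Ratios within a library do not depend on scaling between libraries and show how the balance of receptors shifted. The ratio of P2ry12 to P2ry6 was 24.3 to 28.6 in sham controls, 0.722 to 3.88 in WT and 2.90 to 8.72 in Fgg γ390–396A microglia at 1 d, and 9.77 to 11.1 and 12.9 to 20.9 at 7 d. In infiltrating cells P2ry6 was the more abundant in each library, with ratios of 0.209 to 0.587. The ADP receptors did not fall in step: P2ry12 to P2ry13 was 5.20 to 6.04 in sham controls, 1.32 to 2.34 in WT microglia at 1 d and 4.68 to 4.83 at 7 d. It was 2.21 to 3.58 at 1 d and 5.03 to 5.59 at 7 d in Fgg γ390–396A microglia, the latter overlapping sham controls. The neighbouring channel genes crossed over. P2rx7 to P2rx4 was 1.99 to 3.31 in sham controls, 0.539 to 0.942 in WT and 0.799 to 1.40 in Fgg γ390–396A microglia at 1 d, 1.01 to 1.53 and 1.52 to 1.77 at 7 d, and 0.165 to 0.323 in infiltrating cells. Although P2rx7 itself overlapped its sham range at 7 d, the ratio in all 6 libraries at 7 d remained below every sham library.

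**Figure D4:**
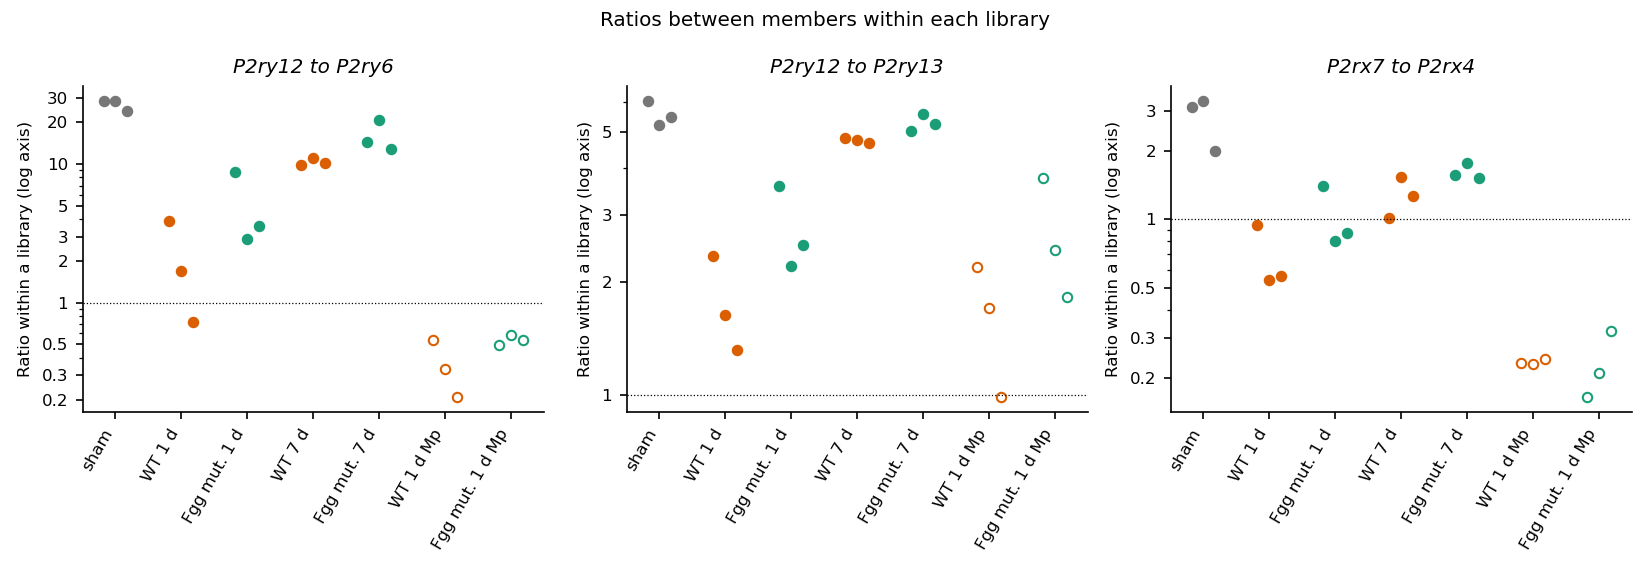
Ratios of P2ry12 to P2ry6, P2ry12 to P2ry13 and P2rx7 to P2rx4 within each library (log axis, dotted line at 1). Points are libraries, coloured as in the plot of levels. P2rx7 to P2rx4 is above 1.9 in the 3 sham libraries, below 1 in the WT libraries at 1 d and at most 0.323 in infiltrating cells.

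Genes whose level most resembled each member over the 15 microglia libraries were searched among 5199 genes with a mean of at least 10 CPM, by Pearson's r of log2 CPM. These r values describe libraries that share groups and are given with no test. P2ry12 was nearest to Sall1 (0.992), Tifab (0.988) and Tgfbr1 (0.987), and P2ry13 to Slc2a5 (0.984), Slco2b1 (0.980) and Cep68 (0.972). Sall1 and Slc2a5 are markers of microglia. P2rx7 was nearest to Frmd4b (0.974), H1f0 (0.968) and Smad7 (0.966), and Entpd1 to Usf3 (0.976), Abca9 (0.971) and Frmd4b (0.971), so Frmd4b was shared by the last 2. P2rx4 was nearest to Lipa (0.922), a lysosomal lipase, Tpt1 (0.915) and Scpep1 (0.913), and P2ry6 to Maged1 (0.920), Adam15 (0.920) and Pigt (0.918). Adora3 had no close match, with 0.782 for Wdr45b, 0.754 for Anapc16 and 0.722 for Vps37a. Among members, r was 0.95 between P2ry12 and P2ry13, 0.94 between P2ry12 and Entpd1, 0.92 between P2rx7 and Entpd1, and -0.04 between the neighbours P2rx4 and P2rx7.

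The wider purinergic pathway was read from 7 lists of 55 other genes, of which 52 could be tested: other P2Y, P2X and adenosine receptors, other ectonucleotidases, nucleotide release and adenosine handling, and effectors of P2X7 and P2Y12. In WT microglia at 1 d 9 of 52 were called against sham controls, 7 higher and 2 lower, beside 12.3% of all genes called, with a median log2 fold change of 0.25 against 0 over all genes. P2ry2, a receptor for ATP and UTP, was higher (3.46 ± 1.27 CPM against 0.114 ± 0.0760 CPM, SD, n = 3, adjusted p = 2.1e-05 by edgeR), with no fold given because its sham level was near the 3-count limit. Il1b, which encodes interleukin-1β, was also higher (81.2 ± 56.9 against 10.5 ± 6.63 CPM, 2.94, SE 0.58, adjusted p = 0.0011 by edgeR). Its RNA level does not measure the release that P2X7 triggers. Pik3cg, a kinase downstream of Gi-coupled receptors, was lower (34.8 ± 2.36 against 71.9 ± 15.2 CPM, -1.05, SE 0.16, adjusted p = 1.3e-04 by edgeR), as was Slc29a3, a nucleoside transporter (115 ± 10.7 against 232 ± 35.4 CPM, -1.01, SE 0.17, adjusted p = 3.1e-04 by edgeR). At 1 d 2 of 52 were called in Fgg γ390–396A mice, beside 6.64% of all genes, both higher: P2ry2 (1.32 ± 0.269 CPM, adjusted p = 8.0e-04 by edgeR) and Il1b (40.3 ± 16.2 CPM, log2 fold change 1.93, SE 0.56, adjusted p = 0.030 by edgeR). By DESeq2 the counts were 10 and 5 of 52, beside 3895 and 2128 of all 23815 genes.

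At 7 d 4 of 52 were called in WT mice, all higher, beside 2.02% of all genes. In Fgg γ390–396A mice 0 were called by edgeR, beside 0.663%, and 6 had an unadjusted p under 0.05. DESeq2 called 1 there, beside 347 of all 23815 genes. P2ry2 was still higher in WT mice (0.755 ± 0.516 CPM, adjusted p = 0.021 by edgeR), although its lowest WT library (0.163 CPM) was below the highest sham library (0.201 CPM). P2ry14, a receptor for UDP-glucose, had 1.00 ± 0.613 CPM in WT microglia at 7 d and a mean of 0.0127 CPM both in sham controls and in WT microglia at 1 d, under the 3-count limit. It passed the test in both comparisons, with adjusted p = 0.026 and 0.011 by edgeR. Between 7 d and 1 d P2ry2 (-2.20, SE 0.55) and Il1b (-1.86, SE 0.55, with overlapping ranges) were lower in WT mice, and P2ry2 was lower in Fgg γ390–396A mice (-2.15, SE 0.57). Between genotypes 0 of 52 were called by edgeR in microglia at 1 d, in microglia at 7 d or in infiltrating cells, where 9, 2 and 11 had an unadjusted p under 0.05 and 0, 0 and 3 were called by DESeq2. Of all genes 0.0546%, 0.0378% and 0.453% were called by edgeR there, and 104, 80 and 841 of 23815 by DESeq2.

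Infiltrating cells differed from microglia in 16 of 52 of these genes in WT mice, 10 higher and 6 lower, beside 11.9% of all genes, and in 15 of 52 in Fgg γ390–396A mice, 12 higher and 3 lower, beside 16.7%. Nt5e, which encodes CD73, the enzyme that turns AMP into adenosine after CD39, had 34.7 ± 6.65 CPM in WT infiltrating cells and 0.507 ± 0.301 CPM in WT microglia (log2 fold change 6.09, SE 0.53, adjusted p = 3.2e-07 by edgeR). It had 24.3 ± 7.26 and 0.214 ± 0.115 CPM in Fgg γ390–396A mice. So Entpd1 RNA was read in both populations and Nt5e RNA almost wholly in the infiltrating sort. Il1b was higher in WT infiltrating cells (1910 ± 579 against 81.2 ± 56.9 CPM, 4.56, SE 0.62, adjusted p = 3.3e-05 by edgeR), and in Fgg γ390–396A ones (867 ± 584 against 40.3 ± 16.2 CPM, adjusted p = 3.3e-05 by edgeR). P2ry10, listed with the P2Y receptors by its symbol and not by a known nucleotide ligand, was higher in those of Fgg γ390–396A mice (11.4 ± 4.20 against 0.129 ± 0.0935 CPM, adjusted p = 3.4e-06 by edgeR) and of WT mice (9.59 ± 2.49 against 0.579 ± 0.170 CPM, adjusted p = 1.5e-04 by edgeR). The potassium channel genes Kcnk13 (2.86 ± 0.132 against 9.20 ± 0.653 CPM, -1.68, SE 0.26) and Kcnk6 (10.7 ± 4.34 against 30.9 ± 7.34 CPM, -1.53, SE 0.25) were lower in WT infiltrating cells. Kcnk13 encodes THIK-1, a potassium channel known for its role in the surveillance movements of microglia. In Fgg γ390–396A mice Kcnk6 (-2.07, SE 0.25) and the nucleoside transporter gene Slc29a1 (-2.28, SE 0.35) were the leading lower genes.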

How the data were processed

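Expected counts per gene of 21 libraries were deposited by the authors, who trimmed reads with Trim Galore and quantified them with salmon against GRCm38 (mm10), within nf-core/rnaseq, and who per the labels and methods used R 4.2.0 and DESeq2 1.36.0 downstream. The deposited counts are scaled so that transcript length is divided out within a library and are not normalized between libraries. The gene annotation version and the handling of strand are not given in the sources used here. Reads of exonic bases shared by genes on opposite strands may therefore not be told apart.

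Here counts were rounded, symbols and coordinates were taken from GENCODE M21 (45143 of 45706 identifiers matched), and genes with under 5 counts over all libraries were left out, which kept 23815. One edgeR 4.0.16 fit (R 4.3.3) of all 21 libraries, with TMM factors of 0.735 to 1.55, 1 mean per group and a common biological coefficient of variation of 0.643, gave each contrast by glmQLFTest with Benjamini-Hochberg adjustment over all genes tested. Called means an absolute log2 fold change above 1 with an adjusted p under 0.05 (sham, time and cell type contrasts) or 0.1 (genotype), and an adjusted p under 0.1 for differences of genotype effects. Standard errors come from the fold change and its F statistic. Counts at an unadjusted edgeR p under 0.05 have no share over all genes beside them. They cannot be told from a background. CPM are TMM-scaled, and log2 CPM used a prior count of 2. The TMM factors were 1.39 to 1.55 in sham controls and 0.741 to 1.29 in microglia after injury. Levels after injury were thereby raised relative to sham controls, which matters most for small differences such as those of P2ry6 and P2rx4.

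All 7 genes are named in each comparison. From the other lists each comparison names, per direction, the 2 called genes of lowest adjusted p, and for likeness the 3 genes with the highest r per member. The members and lists were chosen with earlier results of these data known. Marker sums cover 10 microglial, 10 monocyte, 10 neutrophil and 7 border macrophage genes. Promoters came from RefSeq (GRCm38.p6), where 6 of 7 members had an entry, 8 windows in all.

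Replicates are separate pools of 2 brains (40000 microglia or 25000 infiltrating cells sorted per library), and replicate pairs differed by at least 20.0 times the sampling variance (chi-square per degree of freedom). Same-numbered libraries deviated together, with every r over 0.1 (0.137 to 0.449 over 3 pairs), only between the 2 genotypes of microglia at 1 d, where the pairing was taken from the data and the replicate number as a block called no member. On simulated counts for WT microglia at 1 d against sham controls (23214 genes, 200 changed by 2 on the log2 scale) 58.5% were recovered with 2 false calls. Alternatives were DESeq2 1.42.0, its size factors, other filters on counts, removal of ribosomal RNA genes, fits of fewer groups, the replicate block, other bars and leaving out each library.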

Additional observations from a re-analysis of the deposited data

How the results depend on the processing

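Leaving out 1 library at a time kept the direction and side of the threshold of 591 single-member values, changed the sign of 20, ended 11 calls and added 8. All 91 values kept both without a filter on counts, with edgeR's filterByExpr and without ribosomal RNA genes, 89 did with DESeq2's size factors, 89 with the replicate block, 88 with the compared groups alone and 87 by DESeq2's Wald test, as did 62 with the microglia libraries alone. The calls lost were P2ry13 in Fgg γ390–396A microglia at 1 d with the microglia libraries alone, and P2rx4 in WT microglia at 7 d and P2rx7 in Fgg γ390–396A infiltrating cells with the compared groups alone. The count of members called for WT microglia at 7 d against sham controls went from 2 to 0 at a bar of 1.5 and to between 0 and 1 without 1 library. For Fgg γ390–396A microglia at 1 d it went from 3 to 1 at that bar (2 to 4 without 1 library, 4 with P2rx7 by DESeq2 or with its size factors), and the count of 0 at 7 d became 0 to 1 without 1 library. For Fgg γ390–396A microglia at 7 d against 1 d it went from 0 to 1 with DESeq2's size factors, 1 with the replicate block (P2ry12, 1.24, adjusted p = 0.036 by edgeR), 2 by DESeq2 and 0 to 2 without 1 library, and between genotypes in microglia at 1 d from 0 to between 0 and 1. The block also called P2ry12 for WT microglia at 7 d (-1.28) and changed no other call of a member. Outside the genotype comparison of microglia at 1 d, r between same-numbered libraries ran from -0.119 to 0.166. Whether same-numbered microglia and infiltrating-cell libraries came from the same brains is not stated. Between them r was 0.000797 to 0.166 in WT and -0.0445 to 0.0744 in Fgg γ390–396A mice. The main fit treated them as unpaired.

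The 20 values that changed sign without 1 library were near 0 or widely spread, and none was called. The settings ranged, at 7 d against sham controls, from -0.078 to 0.15 for P2rx7 in WT microglia, and in Fgg γ390–396A microglia from -0.14 to 0.16 for P2ry6 (0.06 without sham replicate 3) and -0.069 to 0.075 for P2rx7 (0.02 without Fgg γ390–396A replicate 1). Between genotypes they ranged from -0.073 to 0.15 for P2ry6 at 1 d (-0.06 without WT replicate 1), and at 7 d from -0.23 to 0.071 for P2ry6, -0.18 to 0.068 for P2rx7 and -0.17 to 0.16 for Entpd1. In infiltrating cells the ranges were -0.049 to 0.21 for P2rx4, -0.38 to 0.44 for P2rx7, -0.44 to 0.090 for Entpd1 and -0.31 to 0.67 for Adora3. For the difference of genotype effects they were -0.28 to 0.016 for P2ry6 and -0.21 to 5.73e-04 for P2rx4 by time, and -1.11 to 0.037 for P2ry12, -0.68 to 0.13 for P2rx7 (0.05 without Fgg γ390–396A microglia replicate 1) and -0.16 to 0.82 for Adora3 by cell type. The causes were not tested. Outside the differences of genotype effects the bar on size left smaller changes uncalled whatever their p, and 3 counts (0.0448 to 0.158 CPM) limit the low genes.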

Other observations

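Med12l, which spans P2ry12 and P2ry13 on the opposite strand, had 10.0 ± 2.74 CPM (SD, n = 3) in sham controls, 3.91 ± 1.19 and 5.59 ± 1.22 CPM in WT and Fgg γ390–396A microglia at 1 d, 5.54 ± 0.525 and 6.55 ± 0.857 CPM at 7 d, and 1.74 ± 1.08 and 2.08 ± 0.166 CPM in infiltrating cells. Tmigd3, which shares exons with Adora3, had 3.85 ± 1.93 CPM in sham controls and 0.370 ± 0.355 CPM in WT microglia at 1 d, while Adora3 had 40.8 ± 7.23 and 33.9 ± 5.01 CPM. These genes were chosen for their position.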
